A study of Mus musculus with 20 samples.

Results

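The Hox cluster genes encode homeodomain transcription factors that lie side by side in 4 clusters, Hoxa to Hoxd, and are numbered from 1 to 13 by paralogue. They were taken as every probe set whose single annotated symbol is Hox followed by a, b, c or d and a number. This gave 48 of the 45101 probe sets of the Affymetrix Mouse Genome 430 2.0 array and 33 of the 18193 genes with a usable symbol: 9 of Hoxa, 9 of Hoxb, 7 of Hoxc and 8 of Hoxd. The samples were whole wild-type C57BL/6 mouse embryos of mixed sex, kept specific-pathogen free, with the amnion left out. There were 20 arrays over 8 stages, 3 at each of the daily stages from E7.5 to E10.5 and 2 at each stage taken every other day from E12.5 to E18.5. Each array held RNA pooled from several embryos, which limits it to an average over animals, and p-values measure the spread between pools.

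Hox proteins give cells along the body axis their positional identity. Genes with low paralogue numbers lie at the end of the cluster that opens first and act in the hindbrain, neck and pharyngeal arches. Genes with high numbers act in the lumbar, sacral and tail region, the limbs and the urogenital tract, and the order along the chromosome is mirrored by the order of activation in time and space, a property named collinearity. The proteins bind DNA with TALE homeodomain partners of the Pbx, Meis and Pknox families, and retinoic acid, Fgf and Wnt signals and the caudal-type Cdx factors act on the clusters. As a whole embryo was measured, fewer cells of a type and less RNA per cell cannot be told apart.

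The promoters of 4 members are shown because their genes mark the ends of the time course: Hoxb1 and Hoxd1 were the members lower at E10.5 than at E7.5, Hoxa9 rose early and Hoxd13 rose late. Each is the RefSeq sequence of build GRCm38.p6, from 250 bases before the start to 50 bases after it, 5′ to 3′ on the gene's strand, with matches to any of 4 motifs in capitals.
Hoxb1: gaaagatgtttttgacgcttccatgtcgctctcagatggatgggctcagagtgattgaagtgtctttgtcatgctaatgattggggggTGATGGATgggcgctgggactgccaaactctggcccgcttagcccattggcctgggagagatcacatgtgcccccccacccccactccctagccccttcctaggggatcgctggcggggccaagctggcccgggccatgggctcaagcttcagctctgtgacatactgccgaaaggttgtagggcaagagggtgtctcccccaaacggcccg
Hoxd1: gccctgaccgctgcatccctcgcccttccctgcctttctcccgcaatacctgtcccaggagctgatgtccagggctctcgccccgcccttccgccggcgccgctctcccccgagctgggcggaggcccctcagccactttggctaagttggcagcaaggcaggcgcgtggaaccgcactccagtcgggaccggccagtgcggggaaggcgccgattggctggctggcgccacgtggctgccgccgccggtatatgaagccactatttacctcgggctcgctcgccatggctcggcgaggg
Hoxa9: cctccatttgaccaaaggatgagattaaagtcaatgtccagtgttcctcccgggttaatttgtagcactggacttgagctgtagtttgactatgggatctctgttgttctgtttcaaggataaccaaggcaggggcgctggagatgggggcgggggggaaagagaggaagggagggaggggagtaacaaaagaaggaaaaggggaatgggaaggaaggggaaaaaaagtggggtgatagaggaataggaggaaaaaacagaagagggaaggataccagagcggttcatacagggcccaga
Hoxd13: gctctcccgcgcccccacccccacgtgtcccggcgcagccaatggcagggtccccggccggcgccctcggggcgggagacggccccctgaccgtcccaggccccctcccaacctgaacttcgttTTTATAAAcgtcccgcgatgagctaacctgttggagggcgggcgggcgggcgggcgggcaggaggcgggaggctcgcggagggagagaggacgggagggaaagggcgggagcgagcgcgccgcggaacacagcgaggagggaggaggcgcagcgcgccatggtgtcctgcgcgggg
They lie at chr11:96365508-96365807 on the plus strand (Hoxb1), chr2:74762730-74763029 on the plus strand (Hoxd1), chr6:52227321-52227620 on the minus strand (Hoxa9) and chr2:74667975-74668274 on the plus strand (Hoxd13). Promoters were found for 19 of the 33 genes, 21 in all, and searched on both strands. The Hox-Pbx type motif TGATNNAT was in 14.3% of the 21 and in 8.85% of all 32851 promoters of this length, and among the 4 shown only Hoxb1 held it. The caudal-type core TTTATG was in 14.3% against 11.9%, and the nuclear receptor site AGGTCA in 28.6% against 16.3%. The TATA motif TATAAA was in 9.52% against 13.6%, and in Hoxd13 its 2 overlapping matches lie on opposite strands. The GC content of the 4 was 59.3%, 69.7%, 49.7% and 74.3% in the order printed, against a median of 58% for the 21 and 52.7% for all. A match is a stretch of letters and was not tested for binding.

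Values are MAS5 signals on a linear scale. Each change is given on the log2(signal + 25.9) scale, later minus earlier stage, ± the standard error (SE) from limma, a scale that understates the change of low signals. A gene was called, and is said to have risen or fallen, at an adjusted p below 0.05 and at least 2-fold. The arrays form a pair of sets: the 12 up to E10.5 had a median signal of 67.2 to 91.1, and the 8 from E12.5 on had 156 to 178. The middle probe set of the poly-A control dap read 50.8 to 119 in the first set but 1810 to 2570 in the later one. The change from E10.5 to E12.5 and the array set therefore cannot be told apart. Onset is given within the first set, and the highest stage both over all stages and within each set, since a peak at E12.5 over all stages rests on that step. Replicates correlated at 0.977 to 0.991, and none held the same values as another.

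Of the 33 genes, 29 passed the filter, a signal above the array's median on at least 2 arrays. Hoxb7 (2.57 to 62.4 over the 20 arrays), Hoxa13 (5.91 to 122), Hoxb13 (1.84 to 60.8) and Hoxc13 (4.08 to 75.5) did not, so that paralogue 13, the end of the clusters, was tested in Hoxd13 alone. All 29 differed between stages in limma's moderated F test, the largest adjusted p being 2.9e-05, but so did 91.0% of all genes tested. A gene that passed only through the stages where it was high had to differ, so this count says little about the members.

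Most of the tested Hox genes rose within the first day measured. Between E7.5 and E8.5, 18 of 29 rose and 0 fell, where 6.27% of all genes tested rose and 4.93% fell. The median change of the 29 was 1.61, against 0.03 over all genes. None was lower at an unadjusted p below 0.05 either, while 23 were higher, a threshold at which all genes were not counted. Between E8.5 and E9.5, 8 rose and 3 fell, against 2.49% and 1.68%. Between E9.5 and E10.5, 2 rose and 1 fell, against 3.15% and 0.513%, and the median change was 0.08 against 0.05. Over the 3 days from E7.5 to E10.5 together, 24 rose and 1 fell, against 16.0% and 7.49%, with a median of 2.18 against 0.11. These comparisons share arrays. The size of a rise from signals near or under the pseudocount depends on it: with a pseudocount 4 times larger or smaller, the first step was 1.74 or 3.75 for Hoxa7 and 1.78 or 3.75 for Hoxd3, and the change from E7.5 to E10.5 was 2.05 or 4.41 for Hoxd10.

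In the first step rises came in all 3 paralogue groups, and in the next mostly in paralogues 9 to 13. From E7.5 to E8.5, 7 of 10 genes of paralogues 1 to 4, 6 of 8 of paralogues 5 to 8 and 5 of 11 of paralogues 9 to 13 rose. From E8.5 to E9.5 the counts were 1, 1 and 6. Within the last group the division lay between 9 and 10: of paralogues 10 to 13, 1 of 7 rose in the first step, Hoxd10, and 6 of 7 in the next, all but Hoxd12. This division was chosen after the values were seen. The difference between the steps was itself tested, in a contrast added after the data were seen, the change from E8.5 to E9.5 minus the change from E7.5 to E8.5. It was called positive for 3 members, Hoxd13, Hoxa11 and Hoxc10, and negative for 15, against 4.43% and 5.35% of all genes. Without the E7.5 array of replicate 1 the first count was 5. In another probe set of Hoxd13, 1422239_at, neither of the steps was called. Of the 15, 11 were of paralogues 1 to 8 and 4 were the paralogue 9 genes.

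**Figure D1:**
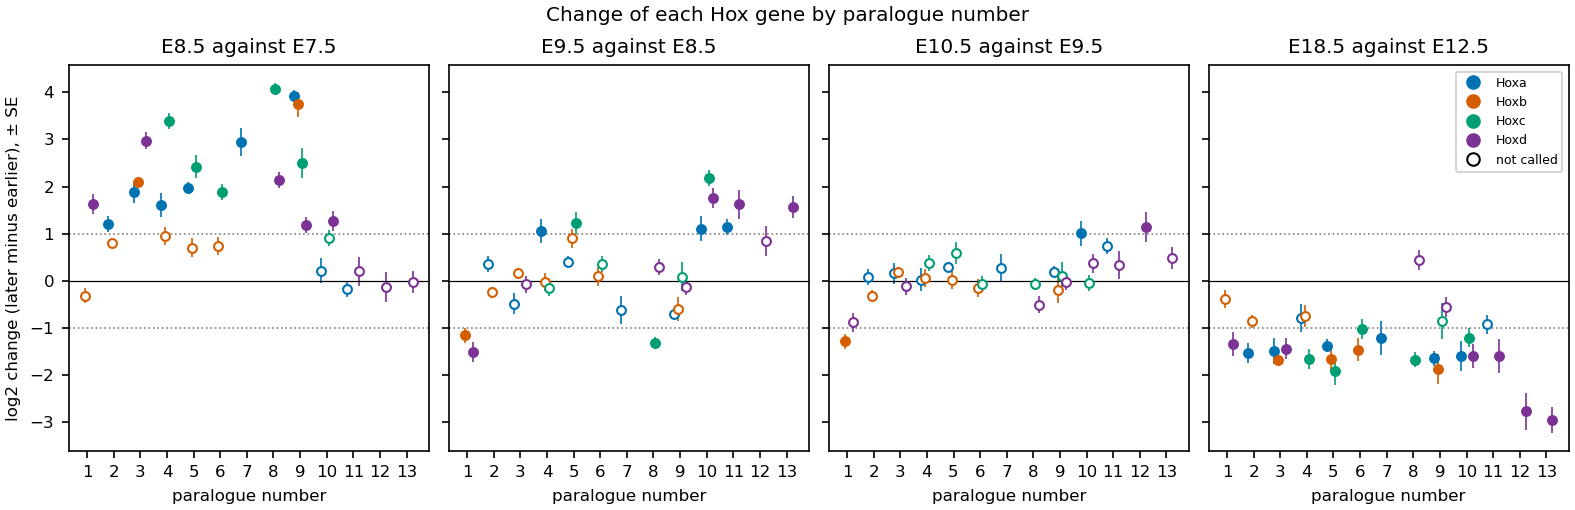
Log2 change of each of the 29 tested Hox genes (points, coloured by cluster) with its SE (bars) against paralogue number, for E8.5 against E7.5, E9.5 against E8.5, E10.5 against E9.5 and E18.5 against E12.5. Filled points were called, open points were not, and dotted lines mark a 2-fold change: the called rises of the first step reach 4.07 in Hoxc8, those of the next step stand mostly at paralogues 10 to 13, and 21 of 29 genes fell from E12.5 to E18.5.

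Onset, the first of E8.5, E9.5 and E10.5 called higher than E7.5, was E8.5 for 18 genes, E9.5 for 5 and E10.5 for 2, where 6.27%, 5.03% and 6.21% of all genes had these onsets. The 5 at E9.5 were Hoxb5, Hoxa10, Hoxc10, Hoxd11 and Hoxd13, and the 2 at E10.5 were Hoxa11 and Hoxd12. The 4 genes with no onset, Hoxb1, Hoxb2, Hoxb4 and Hoxb6, all belonged to Hoxb. Another probe set of Hoxb4, 1451761_at, was however called higher at E10.5 than at E7.5 (1.25 ± 0.26, adjusted p = 0.00042). All 4 genes with no onset were above the array median on every E7.5 array. By this level measure, with no test, the first stage with all its arrays above the median was E7.5 for 13 of the 29 and E8.5 for 10. Of the other 6, Hoxa10, Hoxc10, Hoxd10, Hoxd11 and Hoxd13 were first so at E9.5, and Hoxd12 at E10.5. Hoxa11 was among the 13, and although its onset was E10.5 it rose from E8.5 to E9.5. Without the E7.5 array of replicate 3 no gene had its onset at E10.5.

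Hoxb held the fewest early rises. In the first step 6 of 8 Hoxa genes, 2 of 7 Hoxb genes, 5 of 6 Hoxc genes and 5 of 8 Hoxd genes rose, with median changes of 1.75, 0.81, 2.46 and 1.22. By E10.5, 8 of 8 Hoxa, 3 of 7 Hoxb, 6 of 6 Hoxc and 7 of 8 Hoxd genes were higher than at E7.5. The difference between clusters was not tested, since genes of a cluster are not replicates. Across the 29 genes the Spearman correlation of paralogue number with the change was -0.21 in the first step (-0.37 to 0 over the alternatives), 0.52 in the next (0.47 to 0.55) and 0.51 from E9.5 to E10.5 (0.42 to 0.56). Across the 8 Hoxd genes it was -0.88, 0.71 and 0.93, so that the low-numbered Hoxd genes took the larger changes first and the high-numbered ones later. Across the 8 Hoxa genes it was -0.19, 0.36 and 0.81, across the 7 Hoxb genes 0.43, 0.29 and 0.29, and across the 6 Hoxc genes -0.37, 0.31 and -0.49. The genes share the same arrays, so these are descriptions with no p.

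**Figure D2:**
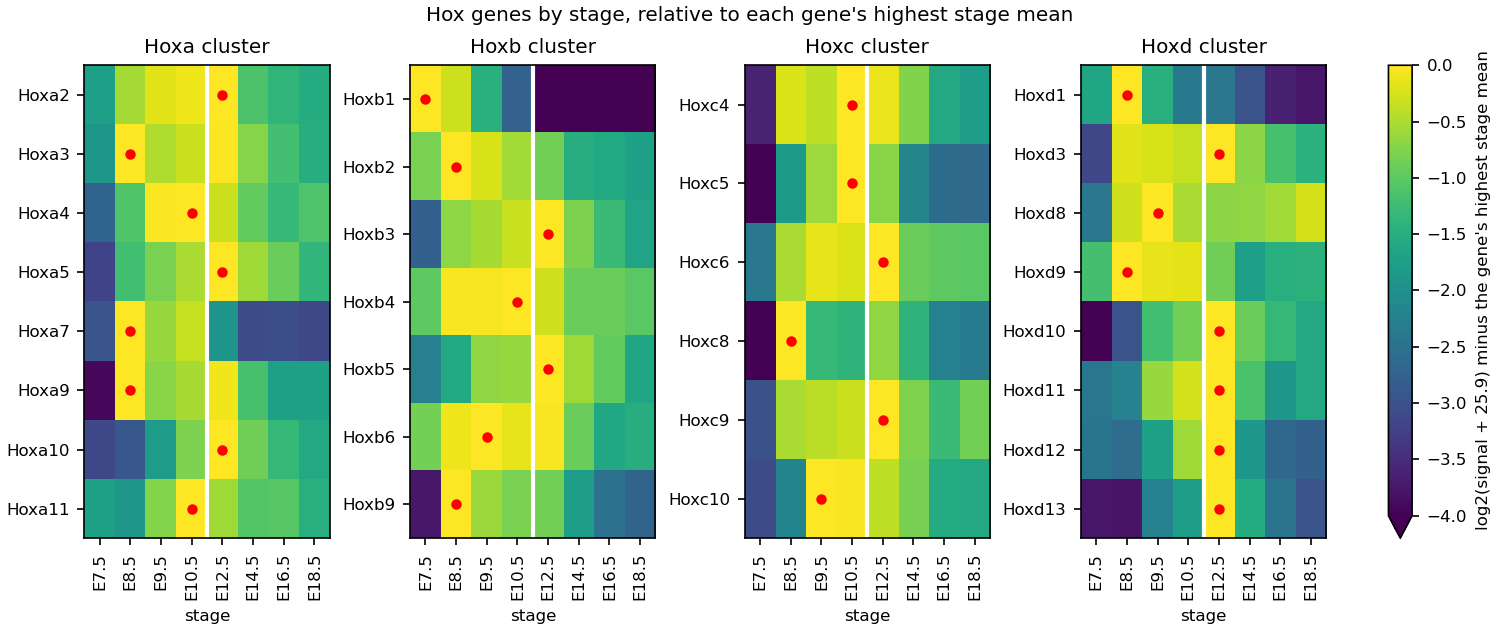
Stage means of log2(signal + 25.9) of the 29 tested Hox genes relative to each gene's highest stage mean (colour, clipped at -4), by cluster and stage, with the highest stage as a red dot and the border between the array sets as a white line. Hoxb1 is highest at E7.5, Hoxd1 and Hoxc8 are highest at E8.5, and Hoxd10 to Hoxd13 are highest at E12.5, just past that border.

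Hoxb1, of paralogue 1, sets the identity of rhombomere 4 in the hindbrain. Its signal was 1143, 888 and 1036 on the 3 arrays of E7.5, 787, 834 and 832 at E8.5, 367, 381 and 316 at E9.5, and 129, 121 and 143 at E10.5. It was 36.7 and 43.3 at E12.5, and between 24.4 and 40.3 on the 6 later arrays. No E9.5 array overlapped with E8.5, nor E10.5 with E9.5. Hoxb1 was the only tested member with its highest mean at E7.5 and the only one to fall from E7.5 to E10.5, by 2.74 ± 0.16 (adjusted p = 9e-12). Its first step was -0.31 ± 0.16 (adjusted p = 0.14), and the falls then came at E9.5 (-1.15 ± 0.16) and E10.5 (-1.28 ± 0.16). Hoxd1 made a single pulse. It had 190.0, 262 and 219 at E7.5, 870.4, 697 and 671 at E8.5, and 248, 244 and 247 at E9.5. It rose by 1.63 ± 0.21 and fell by 1.50 ± 0.21 on consecutive days (adjusted p = 2.4e-06 and 2.7e-05), so that every E8.5 array stood above all others. At E10.5 it was 157, 81.7 and 137, a change of -0.75 ± 0.21 from E7.5 that was under 2-fold, and at E18.5 it was 26.4 and 35.8.

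Of the genes of paralogues 2 and 3, all but Hoxb2 rose by E8.5. Hoxb2, expressed in the hindbrain from rhombomere 3 on, had 849, 857 and 932 at E7.5 and 1660.4, 1596 and 1427 at E8.5, a change of 0.81 ± 0.11 that passed the p threshold but not 2-fold. Hoxa2, which gives the second pharyngeal arch its identity, went from 84.6, 93 and 104 to 301, 253 and 202, a rise of 1.20 ± 0.17 (adjusted p = 9e-06). It stayed between 299.7 and 406 on all arrays from E9.5 to E12.5. Hoxa3, needed for thymus and parathyroid, rose by 1.89 ± 0.23, from 169, 47.8 and 91.4 to 447, 363 and 436. Another probe set of Hoxa3, 1452421_at, was not called in this step (0.81 ± 0.24, under 2-fold). Its mean signal was highest at E12.5, at 276 against 128 at E8.5. Hoxb3 rose by 2.09 ± 0.11 (adjusted p = 1.4e-11), from 184, 268 and 221 to 935, 1061 and 1104. Hoxd3 had 14, 19.8 and 17.7 at E7.5 and 298, 353 and 282 at E8.5, a rise of 2.97 ± 0.18 (adjusted p = 7.8e-11). From E8.5 to E12.5 its arrays ran between 219.5 and 384 with no step called, so that its rise was complete within the first day.

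Paralogue 4, active from the hindbrain border down the neck, showed the spread of behaviour within a paralogue group. Hoxc4 had 80.4, 57 and 45.6 at E7.5 and 857, 887 and 881 at E8.5, and rose by 3.39 ± 0.17 (adjusted p = 2.9e-12). Its E9.5 arrays, 1081, 700.0 and 633, lay on both sides of those of E8.5. Hoxa4 climbed over 2 days, from 38.4, 18.7 and 5.6 to 79.4, 128 and 134, then to 265, 259 and 258. Both steps were called, 1.61 ± 0.25 and 1.06 ± 0.25 (adjusted p = 2.6e-05 and 0.0048). Without the E8.5 array of replicate 1 the latter step was 0.87 and below 2-fold. Hoxb4, known for its action in blood stem cells, had 159, 97.2 and 156 at E7.5 and 340.2, 252 and 276 at E8.5. Its change of 0.96 ± 0.19 (adjusted p = 0.00039) was under 2-fold, and so, by a narrow margin, was the change from E7.5 to E10.5, 1.00 ± 0.19. The latter was 1.25 ± 0.26 and called in another probe set of Hoxb4, 1451761_at. Of these 3 genes only Hoxa4 had a called step between E8.5 and E10.5.

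Paralogues 5 and 6 pattern the lower neck and upper thorax. Hoxa5, needed for lung and diaphragm formation, rose by 1.98 ± 0.11 (adjusted p = 1e-11), from 87.5, 111 and 90.6 at E7.5 to 471, 471 and 427 at E8.5. It was higher again on all arrays of E9.5 (589 to 650.4) and E10.5 (750.4 to 779), though those steps, 0.41 ± 0.11 and 0.30 ± 0.11, were under 2-fold. Hoxc5 rose from E7.5 to E10.5 by 4.24 ± 0.24 (adjusted p = 6.2e-12). Its arrays gave 41.2, 29.2 and 22.7 at E7.5, 339, 316 and 194 at E8.5, 899.7, 566 and 623 at E9.5, and 906, 1120.0 and 1105 at E10.5. The first and the next step were called, 2.42 ± 0.24 and 1.23 ± 0.24, which set Hoxc5 apart from the other tested genes of paralogues 5 to 8, whose E9.5 step was called only for Hoxc8, downward. Hoxb5 was the latest of paralogue 5 by the onset rule: its first step, from 121, 111 and 57.5 to 161, 184 and 157, was 0.70 ± 0.20 and the next, to 296, 355 and 356, was 0.90 ± 0.20, neither 2-fold alone. Hoxc6 rose by 1.89 ± 0.17, from 86.1, 85.1 and 79.4 to 323, 461 and 366. Hoxb6 had 329.7, 537 and 415 at E7.5 and 655, 815 and 688 at E8.5, a change of 0.74 ± 0.20 (adjusted p = 0.0058) under 2-fold.

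Paralogues 7 and 8 mark the thorax, and Hoxc8 also the motor neurons of the brachial spinal cord. Hoxc8 rose by 4.07 ± 0.13 on the first day (adjusted p = 7e-15) and was 1 of the 3 members that fell on the next, at -1.32 ± 0.13 (adjusted p = 5.8e-07). Its signal was 48.2, 76.6 and 84.9 at E7.5, 1543, 1628 and 1518 at E8.5, 630.3, 591 and 605 at E9.5, and 604, 514 and 620.5 at E10.5. The E8.5 arrays stood above those of every other stage. Hoxa7 followed a like course, with 13.8, 21.4 and 13.8 at E7.5, 327, 271 and 295 at E8.5, and 167, 242 and 153 at E9.5. It rose by 2.94 ± 0.30 (adjusted p = 1.2e-07), and its E9.5 step was -0.62 ± 0.30 (adjusted p = 0.18), not a called fall. Hoxa7 passed the filter only through its arrays of E8.5 to E10.5, so its rise rests in part on that filter. Hoxd8 rose by 2.13 ± 0.17 (adjusted p = 5.1e-09), from 156, 86.9 and 168 to 802, 653 and 569, and was highest at E9.5 with 931, 703 and 849. The second step less the first was -5.40 ± 0.23 for Hoxc8, -3.56 ± 0.52 for Hoxa7 and -1.84 ± 0.30 for Hoxd8, all called.

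All 4 genes of paralogue 9, which act at the thoracic to lumbar transition, rose by E8.5, as did 7 of 10 genes of paralogues 1 to 4 and 6 of 8 of paralogues 5 to 8, whereas of paralogues 10 to 13 only Hoxd10 had risen by then. Hoxa9 rose by 3.92 ± 0.13 (adjusted p = 7e-15), from 190.2, 116 and 146 at E7.5 to 2724, 2709 and 2408 at E8.5. At E9.5 it was 1907, 1514 and 1395, below all E8.5 arrays, a change of -0.70 ± 0.13 under 2-fold. Hoxb9 rose by 3.74 ± 0.26 (adjusted p = 5.8e-10), from 40.1, 39.8 and 6.57 to 793, 658 and 573. It was the only Hoxb gene besides Hoxb3 to rise in that step. Hoxc9, which sets the identity of thoracic motor columns, rose by 2.50 ± 0.31 (adjusted p = 1.8e-06), from 48.3, 9.13 and 20.2 to 239.7, 257 and 263. Hoxd9 was already above the array median on every E7.5 array, at 235, 326 and 254, and rose by 1.18 ± 0.17 (adjusted p = 1.1e-05) to 700.0, 679 and 558. None of the 4 had a called change at E9.5 or E10.5. For Hoxa9 the second step less the first was -4.63 ± 0.23, for Hoxb9 -4.34 ± 0.45, for Hoxc9 -2.41 ± 0.54 and for Hoxd9 -1.31 ± 0.29.

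Of the genes of paralogue 10, which suppress ribs in the lumbar region, Hoxc10 and Hoxa10 had their onset at E9.5 and Hoxd10 at E8.5. Hoxc10 had 26.8, 26.7 and 32.2 at E7.5, 99.1, 66.9 and 64.7 at E8.5 and 467, 428 and 419 at E9.5. Its first step, 0.90 ± 0.17, was under 2-fold, and the next was 2.19 ± 0.17 (adjusted p = 1.1e-08). It then held its level, with 424, 473 and 379 at E10.5. Hoxd10 was called at both steps, 1.27 ± 0.21 and 1.76 ± 0.21 (adjusted p = 5.1e-05 and 3.7e-06), from 13.2, 22.2 and 3.97 through 68.2, 61.5 and 69.5 to 413, 256 and 221. Hoxa10, which also acts in the uterus, climbed more slowly. It had 32.4, 94.8 and 114 at E7.5, 121, 69.9 and 83.9 at E8.5, 200.1, 257 and 216 at E9.5, and 563, 531 and 359 at E10.5. The first step was 0.22 ± 0.26, and the next ones, 1.11 ± 0.26 and 1.01 ± 0.26 (adjusted p = 0.0044 and 0.0085), were called. The E10.5 step was just above 2-fold, and leaving out the arrays of E10.5 replicate 1, E10.5 replicate 2, E9.5 replicate 1 or E9.5 replicate 3 put it below, at 0.89 to 0.99. Over all 17 alternatives it ran from 0.32 to 1.2, and 8 of them lost the call.

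Paralogues 11 to 13 act in the sacral region, the kidney, the distal limb and the genital tubercle. Hoxa11, needed with its paralogues for kidney and forearm, had 107, 139 and 166 at E7.5 and 125, 110.1 and 114 at E8.5. It rose by 1.15 ± 0.17 (adjusted p = 4.1e-05) to 245, 297 and 335 at E9.5, and stood at 459, 565 and 482 at E10.5, a step of 0.74 ± 0.17 under 2-fold. Hoxd11 had 6.29, 26 and 36.6 at E7.5 and 46.7, 13 and 30.1 at E8.5, and rose by 1.62 ± 0.30 (adjusted p = 0.00057) to 143, 158 and 122. Hoxd12 was at 3.21, 3.4 and 33.1 at E7.5 and 5.9, 4.72 and 13.4 at E8.5, then 41.3, 43.6 and 22.1 at E9.5 and 119, 111 and 97.6 at E10.5. Only its E10.5 step was called, 1.15 ± 0.32 (adjusted p = 0.014), and without the E9.5 array of replicate 3 it was 0.98 (adjusted p = 0.066). Hoxd12 passed the filter only through its arrays of E10.5 and E12.5, where it was high. Likewise Hoxd11 passed only through those of E9.5, E10.5 and E12.5, and Hoxa7 only through those of E8.5 to E10.5. A call between such stages and others thus rests in part on that filter. This holds as well for other members below the median on every E7.5 array. Hoxd13, which shapes the digits, had 32.2, 69.3 and 68.2 at E7.5, 41.8, 85.5 and 38.5 at E8.5, 236, 208 and 175 at E9.5 and 296, 308 and 286 at E10.5. It rose by 1.56 ± 0.23 (adjusted p = 5.3e-05) at E9.5. The second step less the first was 1.34 ± 0.29 for Hoxa11 and 1.59 ± 0.39 for Hoxd13 (adjusted p = 0.0023 and 0.0075), and without the E8.5 array of replicate 3 the value of Hoxd13 was 1.30 (adjusted p = 0.059). Quantile normalization gave 5 rises at E9.5 in place of 8 and 0 at E10.5 in place of 2.

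**Figure D3:**
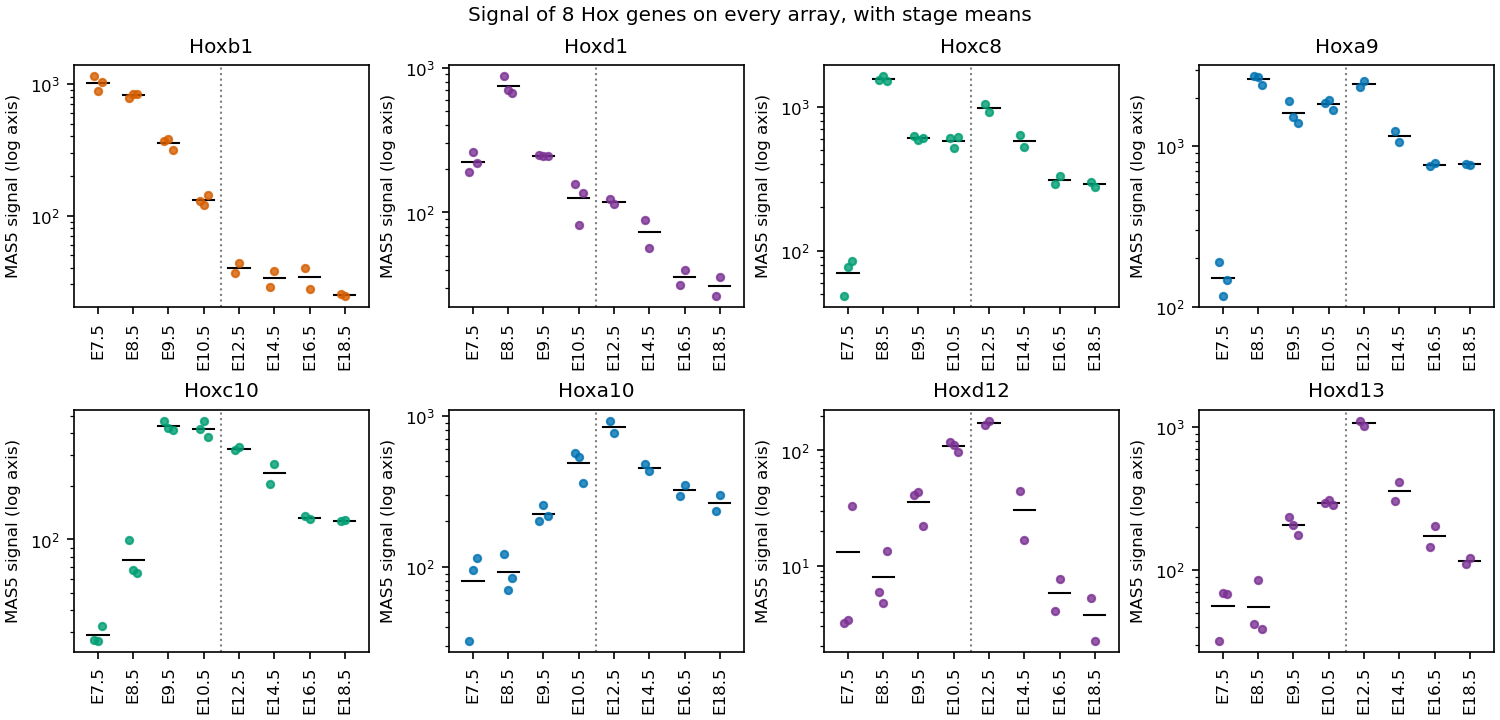
MAS5 signal (log axis) of Hoxb1, Hoxd1, Hoxc8, Hoxa9, Hoxc10, Hoxa10, Hoxd12 and Hoxd13 on every array (points) with the stage mean (bars) and the border between the array sets (dotted line). Hoxb1 goes down from 1022 ± 128 at E7.5, Hoxd1 and Hoxc8 are highest at E8.5, Hoxc10 reaches 438 ± 25.4 at E9.5, and Hoxd13 reaches 1067 ± 62.6 at E12.5 (mean ± SD, n = 3 up to E10.5 and 2 after).

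Across the border of the array sets, E12.5 against E10.5, 1 Hox gene rose and 2 fell, where 10.6% of all genes rose and 2.02% fell. The members' median change was 0.10 and that of all genes 0.12. Hoxd13 rose by 1.76 ± 0.25 (adjusted p = 1.4e-05), to 1111 and 1023. Hoxb1 fell by 1.25 ± 0.18 and Hoxa7 fell by 1.58 ± 0.33 (adjusted p = 1.1e-05 and 0.00066). As Hoxa7 passed the filter only through its arrays of E8.5 to E10.5, its fall rests in part on that filter. The E12.5 arrays of Hoxa7 disagreed, at 23.2 and 121, and without replicate 1 the change was -0.79 (adjusted p = 0.059). Under quantile normalization 1 rose and 4 fell, and the median of all genes was -0.11.

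Over all 8 stages the highest mean was at E7.5 for 1 gene, E8.5 for 8, E9.5 for 3, E10.5 for 5 and E12.5 for 12, where 19.3%, 8.71%, 5.64%, 9.15% and 15.2% of all genes peaked. It was at no later stage for any of the 29, while 8.47%, 9.55% and 24.0% of all genes peaked at E14.5, E16.5 and E18.5. The probe set of Hoxd8 not used, 1433638_s_at, was however highest at E16.5, with a mean signal of 551 against 244 at E9.5. The 12 with a peak at E12.5 became 7 under quantile normalization. Of the 11 genes of paralogues 9 to 13, 6 peaked at E12.5, against 3 of 10 for paralogues 1 to 4 and 3 of 8 for paralogues 5 to 8. Within the first array set, 1 gene was highest at E7.5, 9 at E8.5, 4 at E9.5 and 15 at E10.5, where 31.7%, 17.0%, 12.8% and 38.5% of all genes were. Within it 7 of the 11 genes of paralogues 9 to 13 were highest at E10.5, and the 3 highest at E8.5 were Hoxa9, Hoxb9 and Hoxd9. Most peaks were broad: Hoxd1 and Hoxd13 were the only members whose every other stage was called lower than the peak. Hoxc8 was not called lower at E12.5 than at its peak of E8.5, and Hoxb4 and Hoxd8 each had 7 stages not called lower than the highest, the peak itself included.

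Most of the tested Hox genes fell over the fetal stages. Within the second array set 28 of the 29 were highest at E12.5 and 1 at E18.5, where 38.6% and 31.6% of all genes were. From E12.5 to E18.5, 21 fell and 0 rose, against 6.44% and 15.2% of all genes, and the median change was -1.46 against -0.09. None rose, and 1 was higher at an unadjusted p below 0.05, Hoxd8. The first of the 3 steps held the most falls: 6 of 29 fell from E12.5 to E14.5, against 0.370% of all genes (3.28% rose), with a median of -0.77 against 0, and 26 were lower at an unadjusted p below 0.05. No member was called higher in that step, at an unadjusted p either. From E14.5 to E16.5 and from E16.5 to E18.5 limma called 0 either way, against 3.60% higher and 0.178% lower, and 3.52% higher and 0.776% lower, of all genes. At an unadjusted p below 0.05, 11 and 4 members were lower in these steps and 0 higher. All genes were not counted at that threshold, so these counts and the 26 above have no background to be judged against. Quantile normalization gave 12 falls in the first step in place of 6, and 3 in the next in place of 0.

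Hoxd13 and Hoxd12 were among the members that fell from E12.5 on. Hoxd13 went from 1111 and 1023 at E12.5 to 303 and 416 at E14.5, 145 and 203 at E16.5, and 109.9 and 121 at E18.5. It fell by 2.95 ± 0.28 in all (adjusted p = 3.3e-08). Hoxd12 went from 167 and 182 to 44.7 and 16.8, then 4.03 and 7.71, and ended at 5.24 and 2.25. It fell by 2.76 ± 0.39 (adjusted p = 6e-06), a size that depends on the pseudocount: its E18.5 signals lie below it, and the change was -1.37 with a pseudocount 4 times larger and -4.16 with 1 that was 4 times smaller. For both genes the E14.5 arrays lay below those of E12.5, and both ended below the array median at E18.5. As Hoxd12 passed the filter only through its arrays of E10.5 and E12.5, its falls from E12.5 rest in part on that filter. In the E14.5 step Hoxd12 fell by 1.86 ± 0.39 and Hoxd13 by 1.52 ± 0.28 (adjusted p = 0.0032 and 0.0011). Without the E14.5 array of replicate 2 that of Hoxd12 was -1.50 (adjusted p = 0.080). The Spearman correlation of paralogue number with the change of this step was -0.90 across the 8 Hoxd genes and -0.39 across the 29, the latter -0.60 to -0.21 over the alternatives.

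Lower paralogues fell too. From E12.5 to E18.5, 6 of 10 genes of paralogues 1 to 4, 7 of 8 of paralogues 5 to 8 and 8 of 11 of paralogues 9 to 13 fell, with medians of -1.39, -1.42 and -1.59. Among paralogues 1 to 4 the falls included those of Hoxb3 (-1.67 ± 0.14, adjusted p = 6.1e-09), from 1783 and 1567 to 503 and 511, of Hoxc4 (-1.65 ± 0.21), from 926 and 968 to 270.4 and 296, and of Hoxa2 (-1.53 ± 0.21), from 379 and 372 to 105 and 122. By E14.5 Hoxa2 was at 151 and 167 (-1.12 ± 0.21, adjusted p = 0.0012). Among paralogues 5 to 8, Hoxc5 fell by 1.91 ± 0.29, from 446 and 876 to 168 and 129, and Hoxc8 by 1.67 ± 0.16, from 1049 and 918 to 300.5 and 279. The first step of Hoxc5 was -1.47 ± 0.29 (adjusted p = 0.0023), and without the E12.5 array of replicate 2 its adjusted p was 0.084. Hoxb5 fell by 1.65 ± 0.25, from 544 and 546 to 133 and 182. Among paralogue 9, Hoxb9 fell by 1.86 ± 0.32, from 325 and 399 to 75 and 86.4. Hoxa9 fell by 1.08 ± 0.16 in the first step (adjusted p = 0.00015), from 2343 and 2558 to 1246 and 1055, which was -0.96 without the E14.5 array of replicate 2. Another probe set of Hoxa9, 1421579_at, was not called in this step (-0.74 ± 0.17). From E12.5 to E18.5 it was not called either, at -0.77 ± 0.17 against -1.64 ± 0.16 in the one used. Hoxa7 was called in the first step too, at -1.17 ± 0.36 (adjusted p = 0.046), but its E12.5 arrays disagreed, and without replicate 2 of E12.5 the value was -0.38 (adjusted p = 0.69). Leaving out either E14.5 array also ended that call. Hoxa7 was below the array median on all arrays of both E12.5 and E14.5.

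Hoxd8 was the exception. Its signal was 462 and 534 at E12.5, 521 and 498 at E14.5, 550.4 and 554 at E16.5, and 679 and 693 at E18.5. The E18.5 arrays were above all others of the second set, but the change of 0.45 ± 0.21 (adjusted p = 0.083) was not called. It was the only positive one of the 29. In the other probe set of Hoxd8, 1433638_s_at, this change was 0.04 ± 0.31 and not called. Its mean signals were 418 at E12.5, 551 at E16.5 and 435 at E18.5. The other members not called from E12.5 to E18.5 were Hoxb1, Hoxb2, Hoxa4, Hoxb4, Hoxc9, Hoxd9 and Hoxa11, with changes of -0.38 to -0.92. Of these Hoxb2 (-0.86 ± 0.14), Hoxa4, Hoxb4, Hoxd9 and Hoxa11 passed the p threshold and fell short of 2-fold.

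Of the 33 genes 11 had several probe sets. In 2 of them, probe sets of a gene moved in opposite directions in a step where one was called. For Hoxd8 from E10.5 to E12.5 the probe set used, 1431099_at, gave -0.19 ± 0.19 (adjusted p = 0.43) while 1433638_s_at gave 1.28 ± 0.29 (adjusted p = 0.0013). For Hoxc5 from E14.5 to E16.5, 1450832_at gave -1.29 ± 0.32 (adjusted p = 0.018), the one used, 1439885_at, -0.40, and 1456301_at 0.46. The first step was upward in both of these alternative probe sets: mean signals of 1433638_s_at were 42.1 at E7.5 and 222 at E8.5, and those of 1450832_at 10.7 and 76.1. For Hoxa5 the probe set not used, 1443803_x_at, had mean signals of 186 at E7.5 and 208 at E8.5 where the one used had 96.3 and 456. For Hoxd13 the probe set not used, 1422239_at, changed by 0.57 ± 0.47 in the first step and 0.69 ± 0.47 in the next, neither called. The one used, 1440626_at, gave -0.03 ± 0.23 and 1.56 ± 0.23. From E7.5 to E10.5 both were called higher, at 1.55 ± 0.47 and 2.00 ± 0.23. For Hoxa3 and Hoxc6 the probe sets used carry the suffixes _s_at and _x_at, which mark probes that can match more than 1 transcript.

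**Figure D4:**
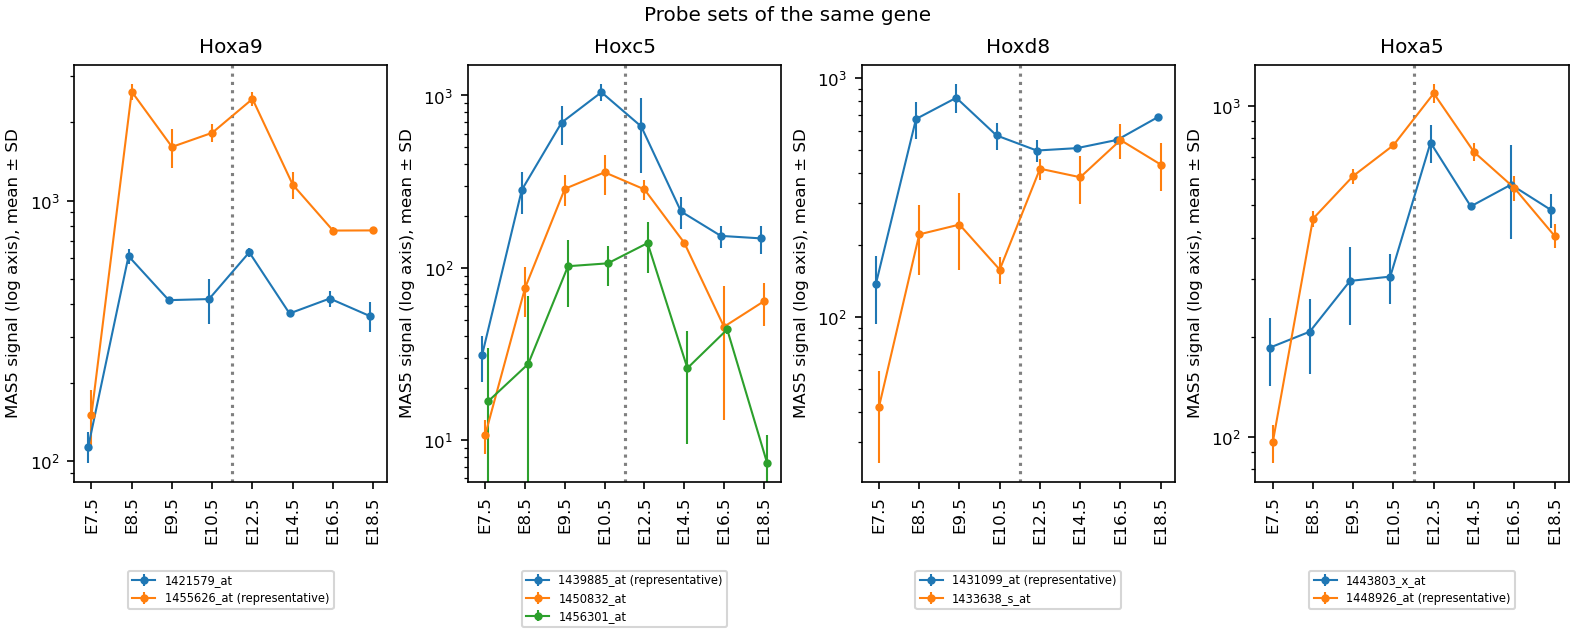
MAS5 signal (log axis, mean ± SD, n = 3 up to E10.5 and 2 after) of every probe set of Hoxa9, Hoxc5, Hoxd8 and Hoxa5 by stage, with the border between the array sets as a dotted line; bars that reach below the axis run off it. The probe sets of Hoxa9 and Hoxc5 share the early rise, 1433638_s_at of Hoxd8 is higher at E12.5 than at E10.5 where the one used is not, and 1443803_x_at of Hoxa5 shows little of the E8.5 rise.

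Of 12 listed genes known to act on the clusters, 11 were tested. From E7.5 to E8.5, 4 rose, where 6.27% of all genes did: Egr2, a rhombomere gene, by 2.90 ± 0.27, the caudal-type Cdx4 by 2.39 ± 0.26, the retinoic acid receptor Rarb by 2.11 ± 0.13 and Fgf8 by 1.27 ± 0.24. From E8.5 to E9.5, 6 fell and none rose, against 1.68% and 2.49% of all genes: Cdx1 by 2.60 ± 0.22, Cdx4 by 2.58 ± 0.26, Egr2 by 2.32 ± 0.27, Cdx2 by 2.06 ± 0.31, the retinoic acid-degrading enzyme Cyp26a1 by 1.99 ± 0.26 and Fgf8 by 1.00 ± 0.24. From E9.5 to E10.5 the 3 Cdx genes fell again. Mean signals of Cdx2 were 1524 ± 471 at E7.5, 1325 ± 182 at E8.5, 298 ± 47.7 at E9.5 and 44.7 ± 37.1 at E10.5 (n = 3). Rarb had no called step after E8.5 in these days, at 835 ± 80.9, 906 ± 128 and 1149 ± 103 on the last 3 of these days. From E12.5 to E18.5, Rarb fell by 1.13 ± 0.15 and Gbx2 by 2.15 ± 0.26, while Cdx1 and Cdx2 rose by 1.76 ± 0.27 and 1.89 ± 0.38.

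Of 9 TALE partner genes listed, 7 were tested. In the first step 3 of the 7 rose, where 6.27% of all genes did: Meis1 by 1.69 ± 0.11 (adjusted p = 1.1e-10), Pknox2 by 1.17 ± 0.10 and Meis3 by 1.16 ± 0.17. By E10.5, Meis1, Meis2 and Meis3 were called higher than at E7.5. From E12.5 to E18.5, 4 of the 7 fell, against 6.44% of all genes: Meis1 by 1.70 ± 0.13, Meis2 by 1.57 ± 0.36, Pbx3 by 1.53 ± 0.10 and Pbx2 by 1.50 ± 0.10. Mean signals of Meis1 were 256 ± 19.1 at E7.5 and 1379 ± 62.5 at E10.5 (n = 3), and 1587 ± 10.6 at E12.5 and 472 ± 55.8 at E18.5 (n = 2).

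Of 15 listed neighbours, antisense and noncoding transcripts of the clusters, 8 were tested. In the first step 2 rose and 0 fell, against 6.27% and 4.93% of all genes. Hoxb5os, read from the strand opposite Hoxb5, had mean signals of 132 ± 33.2 at E7.5, 13669 ± 2741 at E8.5, 8279.7 ± 914 at E9.5 and 3816 ± 476 at E10.5 (n = 3). It rose by 6.45 ± 0.15 in the first step (adjusted p = 7.2e-17), when Hoxb5 itself changed by 0.70 ± 0.20 without a call, and it fell by 1.11 ± 0.15 from E9.5 to E10.5. Hoxd3os1 rose by 2.45 ± 0.20 in the first step, the step in which Hoxd3 rose. Hoxa11os rose by 2.17 ± 0.25 at E9.5, the step in which Hoxa11 rose, from 12.3 ± 12.9 to 141 ± 27.1, and it fell by 2.22 ± 0.31 from E12.5 to E18.5. Evx1, which neighbours the Hoxa cluster, fell by 1.57 ± 0.42 at E9.5, the reverse of Hoxa11 and Hoxa10. Of the 3 ParaHox genes, Gsx1, Gsx2 and Pdx1, only Pdx1 was tested, and it fell by 1.39 ± 0.38 in the first step.

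Markers of other parts of the embryo changed in the same steps. The summed signal of 6 of 7 listed posterior growth zone genes was 5378 to 6775 at E7.5, 4065 to 4483 at E8.5, 1113 to 1213 at E9.5 and 439 to 575 at E10.5. Much of this sum was Nkx1-2, with means of 3146 at E7.5 and 1566 at E8.5. In that first step none of the 6 fell, against 4.93% of all genes. Fgf8 rose in it, from a mean of 142 to 377, against 6.27%. From E8.5 to E9.5, 5 of the 6 fell, against 1.68%. That of 7 visceral and yolk sac endoderm genes was 86410.2 to 99804 at E7.5, 30204 to 34376 at E8.5 and 3358 to 8956 at E9.5. It was 33331 to 34985 at E12.5 and 106600.4 to 108534 at E18.5. Between these 2 stages 6 of the 7 rose, against 15.2% of all genes. Most of the E18.5 sum was Afp, Ttr and Apoa1, with means of 32601, 33542 and 28629.7. Whole-embryo arrays cannot tell which tissue made them, so the sums from E12.5 on are not read as extraembryonic tissue. The sum of 4 of 7 trophoblast genes was 4349.9 to 5798 at E7.5 and 439 to 563 at E8.5. It was 239 to 258 at E12.5 and 437 to 462 at E18.5. Most of the E18.5 sum was Elf5, with a mean of 295, while Ascl2, Tpbpa and Hand1 were below the array median on every array of that stage. Both extraembryonic lists were thus far higher at E7.5 than at E8.5, the step in which most Hox genes rose. The 6 decidua genes summed to 1896 to 2376 at E7.5 and 2865 to 4713 at E8.5, with Prl3c1 and Esr1 below the array median on all arrays of both stages. The 6 limb bud genes went from 2929 to 3516 at E9.5 to 5027 to 5687 at E10.5 and 5449 to 5645 at E12.5. Their sum then went to 2653 to 2841 at E18.5, while Hoxd12 and Hoxd13 fell. Much of this sum was Prrx1, with means of 1506, 3276, 3683 and 2022 at these stages. Of the 6 limb bud genes 2 rose from E9.5 to E10.5, against 3.15% of all genes. From E12.5 to E18.5, 2 of the 6 fell, against 6.44%. The 5 spinal cord and hindbrain neuron genes measured of 6 were at 2112 to 2114 at E12.5 and 589 to 594 at E18.5. Most of that sum was Isl1, with means of 1748 and 392. Mnx1, Lhx3 and Chat were below the array median on every E12.5 array, and 1 of the 4 neuron genes tested fell between these stages. The 5 of 6 kidney and urogenital genes were at 2683 to 2856 at E12.5 and 841 to 896 at E18.5. The 7 forebrain and midbrain genes measured of 8, from regions where Hox genes are silent, went from 2449 to 2794 down to 919.6 to 1048. The 5 red cell genes measured of 6 summed to 10175 to 15156 at E7.5, 53215 to 70102 at E8.5 and 117759.9 to 147302 at E9.5. The part of these tissues in the Hox changes was not tested.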

How the data were processed

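Each array is 1 sample of RNA pooled from whole embryos and gives a linear intensity per probe set, a signal computed by the authors with MAS5, per the submitters' processing notes. The version and settings are not given in the sources used here. The trimmed mean was 500 on every array, and no further normalization was applied. The number of arrays limits the precision.

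Probe sets with 1 gene symbol (34958) were used, 932 with several and 9211 with none were not, and a gene was represented by its probe set of highest mean log2 signal. Of 18193 genes, 14044 were tested: those above the array's median on at least 2 arrays. The pseudocount of 25.9 is the median over arrays of their 25th percentile. All 20 arrays were fitted in limma 3.58.1 under R 4.3.3, using lmFit and then eBayes with a trend, with a mean per stage and 12 residual degrees of freedom. All tests are two-sided and adjusted after Benjamini and Hochberg over the genes tested. On simulated data with 200 changed genes of 14044, a log2 change of 1.5 was recovered in 92.5% of them for E10.5 against E7.5 and in 85.0% for E18.5 against E12.5.

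The members and gene lists were chosen with earlier results of these data known. In each comparison the genes described were up to 3 called rises and 3 called falls of largest size in each of paralogues 1 to 4, 5 to 8 and 9 to 13, members whose direction differed from their group and those whose probe sets disagreed; the other members are given as values. The difference between the first 2 steps and the highest stage within the first array set were added after the data were seen. Alternatives tried were other normalizations (quantile, or scaling by the 75th percentile), a pseudocount divided or multiplied by 4, no filter or a stricter one at the 75th percentile, averaging a gene's probe sets or fitting each alone, no minimum fold, fitting the arrays of 1 set or of the 2 stages only, a block for the replicate number, and each array left out in turn.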

Additional observations from a re-analysis of the deposited data

How the results depend on the processing

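No named change turned its direction in any of 998 alternative fits of 60 changes, and 959 kept the call as well. Counts of called genes below that moved by more than 1.5 times did so for causes that were not tested, except that the filter at the 75th percentile tests fewer genes. With that filter, the rises were 13 for E10.5 against E7.5, 4 at E9.5, 1 at E10.5 and 1 for the second step minus the first, the falls 1 at E12.5, 3 at E14.5 and 13 for E18.5 against E12.5, and onsets 2 at E9.5 and 0 at E10.5. With a pseudocount 4 times larger, rises were 3 at E9.5, 0 at E10.5 and 1 for the second step minus the first, falls 0 at E10.5 and 0 at E12.5, and onsets at E10.5 numbered 4. With 1 that was 4 times smaller, 1 gene rose at E10.5 and 1 had its onset there. Quantile normalization gave 5 rises at E9.5 and 0 at E10.5, falls of 4 at E12.5, 12 at E14.5 and 3 at E16.5, peaks of 7 at E9.5 and 7 at E12.5, and 8 genes highest at E9.5 within the first array set. Scaling by the 75th percentile gave 1 rise at E10.5 and 5 peaks at E9.5. With no minimum fold, 8 rose at E12.5, falls were 3 at E10.5, 2 for E10.5 against E7.5, 5 at E12.5, 15 at E14.5, 6 at E16.5 and 1 at E18.5, and 1 gene had its onset at E10.5. The mean of all probe sets gave 1 rise at E10.5, 2 at E12.5 and 1 peak at E16.5. Every probe set on its own gave 4 rises at E12.5 and 1 fall at E16.5, and no filter 2 rises at E12.5. Leaving out 1 array at a time gave 0 to 2 rises and 1 to 2 falls at E10.5, 1 to 3 falls at E12.5, 0 to 1 at E16.5 and 0 to 1 at E18.5, 2 to 5 rises for the second step minus the first, 0 to 3 onsets at E10.5 and 3 to 7 genes highest at E9.5 within the first array set. Deviations of arrays with the same replicate number correlated above 0.1 in 13 of 62 pairs (highest 0.28), against 0 of 112 pairs with different numbers, so that some shared variation goes with the number but not in every pair. With it as a block, 1 of 23 counts changed, the negative calls of the second step minus the first, from 15 to 16. Signals under the pseudocount at E7.5 limit the size of several rises, of Hoxa7, Hoxd3 and Hoxd10 among others, and low signals left the 4 genes under the filter untested.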

Other observations

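Of the 3 probe sets annotated with a pair of Hox symbols, which entered no comparison, 2 carry Hoxd4 and Hoxd3. Their mean signals over the 4 daily stages from E7.5 on were 81, 683, 540.5 and 593 for 1421537_at, and 40.7, 450.3, 537 and 351 for the other. At E18.5 they were 161 and 43.6. The third carries Hoxb8 and Hoxb7 and had 59.2 at E7.5, 287 at E8.5, 319 at E12.5 and 94.2 at E18.5. All 3 were higher at E8.5 than at E7.5 and lower at E18.5 than at E12.5, with no test.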
